A study of Mus musculus with 12 samples.

Results

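The olfactory receptor genes of the mouse were followed through a CUT&Tag data set of the KPC1199 line, which is grown in culture and comes from a mouse pancreatic ductal adenocarcinoma. Members were taken by name, as every gene window whose symbol begins with Olfr followed by a digit, which gave 1135 of the 25507 windows under 1134 names. In CUT&Tag an antibody guides a transposase to a histone mark, and the tagged DNA beside it is sequenced. H3K4me3, H3K27Ac, H3K27me3 and ubiquitinated histone H2A, labelled H2A119Ub, were each read in 3 cell states. The first was untreated cells at all levels of PD-L1. The second was cells at all levels of PD-L1 after IFN-gamma at 10 ng/ml, and the third was the PD-L1 high cells after IFN-gamma. All cells carried the label C57BL/6 for strain and belonged to 1 line, and each mark and state had 1 library, so no comparison has a replicate and no p-value is given. The libraries are called untreated, IFN-gamma and PD-L1 high below.

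Olfactory receptors are G protein-coupled receptors that detect odorants, and their genes make up the largest family of the mouse genome. They lie in clusters, each mature olfactory neuron expresses a single receptor allele, and other tissues rarely transcribe the family. In olfactory neurons the receptor genes that are not chosen carry H3K9me3 and H4K20me3, neither of which was measured here. H3K4me3 and H3K27Ac mark active promoters, whereas H3K27me3 is placed by Polycomb repressive complex PRC2 and H2A ubiquitination by PRC1.

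RefSeq (GRCm38.p6, the assembly called mm10) lists 1126 of the windows by symbol and places 1125 of them, on 17 chromosomes. It gives 1109 windows as protein coding and 16 as pseudogenes. The annotated span was at most 1100 bp at 913 of 1126 genes (81.1%), with a median of 951 bp, and 806 of these spans were whole multiples of 3. The coding sequence of these receptors usually lies in a single exon of about that size, so the annotated start of most members is near the start of the coding sequence and may not be the promoter used in the nose. Runs of members with gaps of at most 1 Mb formed 49 clusters. The 22 clusters with at least 10 members held 1033 windows, and the largest, with 226 windows, spans chr2:85330967-90401674. The cluster with Olfr78 on chromosome 7, which is taken as the class I receptors, the family branch shared with fish, held 125 windows, and 1000 placed windows were class II.

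The promoter windows below, of 300 bases each, are shown because they belong to members with high signal or with nearly none. They come from the RefSeq promoter table, which had an entry for 944 of the windows, and are written 5′ to 3′ with every CpG in capitals. Olfr1410 had the most H3K27me3 of the family, Olfr12 lies in the same cluster, Olfr222 had the most H3K27me3 outside that cluster, and Olfr432 had the most H3K27Ac. Olfr1151 and Olfr1211 lie in the largest cluster and were nearly without signal. Olfr12, Olfr222, Olfr432, Olfr1151 and Olfr1211 were chosen after their values were seen. Positions and strands in GRCm38.p6 are chr1:92607589-92607888 on the plus strand for Olfr1410, chr1:92619631-92619930 on the plus strand for Olfr12, chr11:59571689-59571988 on the minus strand for Olfr222, chr1:174050125-174050424 on the plus strand for Olfr432, chr2:87856927-87857226 on the plus strand for Olfr1151 and chr2:88930264-88930563 on the minus strand for Olfr1211. The annotated span of Olfr1211 reaches beyond the start used in that table.
Olfr1410: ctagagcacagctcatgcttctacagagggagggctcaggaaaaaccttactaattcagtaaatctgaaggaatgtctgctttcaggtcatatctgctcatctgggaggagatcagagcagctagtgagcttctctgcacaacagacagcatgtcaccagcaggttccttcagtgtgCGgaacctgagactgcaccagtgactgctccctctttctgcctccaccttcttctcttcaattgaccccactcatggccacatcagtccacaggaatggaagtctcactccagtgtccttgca
Olfr12: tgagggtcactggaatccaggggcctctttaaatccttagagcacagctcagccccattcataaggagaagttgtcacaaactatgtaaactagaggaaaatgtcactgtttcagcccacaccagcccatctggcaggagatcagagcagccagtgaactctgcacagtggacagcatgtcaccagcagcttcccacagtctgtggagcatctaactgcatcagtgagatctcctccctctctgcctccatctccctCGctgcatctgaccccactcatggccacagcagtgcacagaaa
Olfr222: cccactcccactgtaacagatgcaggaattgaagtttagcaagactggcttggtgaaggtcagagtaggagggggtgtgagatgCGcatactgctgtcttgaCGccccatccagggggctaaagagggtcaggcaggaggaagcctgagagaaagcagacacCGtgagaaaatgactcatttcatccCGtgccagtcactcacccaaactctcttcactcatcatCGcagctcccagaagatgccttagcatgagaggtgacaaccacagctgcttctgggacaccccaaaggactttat
Olfr432: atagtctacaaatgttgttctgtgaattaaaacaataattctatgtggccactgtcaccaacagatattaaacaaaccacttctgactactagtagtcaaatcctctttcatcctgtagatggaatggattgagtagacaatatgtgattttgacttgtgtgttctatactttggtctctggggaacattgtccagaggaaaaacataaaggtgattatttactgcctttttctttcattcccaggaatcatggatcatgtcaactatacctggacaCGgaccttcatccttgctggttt
Olfr1151: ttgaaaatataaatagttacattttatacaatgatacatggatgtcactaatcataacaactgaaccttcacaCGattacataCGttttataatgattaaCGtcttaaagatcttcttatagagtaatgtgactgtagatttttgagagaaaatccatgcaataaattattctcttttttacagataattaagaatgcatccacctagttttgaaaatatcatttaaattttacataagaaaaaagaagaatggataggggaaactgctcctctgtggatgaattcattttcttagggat
Olfr1211: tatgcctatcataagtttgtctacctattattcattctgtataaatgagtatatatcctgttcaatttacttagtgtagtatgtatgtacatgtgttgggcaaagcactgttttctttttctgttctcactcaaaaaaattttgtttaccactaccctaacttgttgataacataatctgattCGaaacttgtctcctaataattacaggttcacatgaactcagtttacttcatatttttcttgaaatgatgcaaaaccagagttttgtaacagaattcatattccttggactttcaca
Among the 943 member promoters the median CpG count was 1 and the median GC content 35.0%, against 7 and 52.7% over all 27025 promoters of the table. TATAAA, searched on both strands like the other motifs, was found in 41.1% of member promoters and 14.2% of all promoters. Of the printed promoters, those of Olfr1151 and Olfr1211 held it and the other 4 did not. TAATTA, a palindrome of the kind homeodomain factors bind, was found in 18.7% and 5.31%, and again in those of Olfr1151 and Olfr1211 but not in the other 4. CCAAT was found in 40.3% and 37.9%. A further motif, of the kind the Olf1/Ebf factors bind, was found in 0.53% and 0.914%, so it was not more common in member promoters. It was found in 5 member promoters and in none of those printed. Both of the first motifs are rich in A and T, as were the member promoters, and a match is a string of letters and not a bound site. The printed promoters were picked for their signal, so they cannot show whether a motif goes with the level.

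The deposited values are densities normalised by the authors. They were read as normalised tags per window of 6000 bp, a reading inferred from the values, with 1 tag worth 0.989 to 1.03 except in the H2A119Ub library of IFN-gamma cells, where it was worth 1.32. If values were scaled to 10 M tags, that library held 7.59 M tags and the other 11 held between 9.72 M and 10.11 M. Tags in gene windows made up 71.0%, 84.6% and 88.3% of 10 M for H3K4me3 in the untreated, IFN-gamma and PD-L1 high libraries, and 13.3% to 23.9% for the other marks. Of 10 ductal epithelial markers, 9 were at or above the median window of H3K4me3, as were 1 of 7 leukocyte markers (Cd68), 2 of 6 fibroblast and endothelial markers (Col1a1 and Pdgfra), 2 of 7 olfactory neuron markers (Adcy3 and Gng13) and 1 of 7 acinar and endocrine markers (Ppy). Epcam, an epithelial marker, had 75.7, 59.6 and 58.4 H3K4me3 tags in the 3 libraries, and the summed tags of the olfactory neuron markers were 422, 440 and 369.

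Olfactory receptor windows were close to empty of the active marks in all 3 states. The median member had 1, 0 and 0 H3K4me3 tags in the untreated, IFN-gamma and PD-L1 high libraries, against 66.7, 52.6 and 51.5 for the median of all windows. The mean per member was 2.66 (95% Poisson interval 2.57 to 2.76), 1.46 (1.39 to 1.53) and 1.27 (1.2 to 1.33) tags. None of the 1135 members reached the median window of H3K4me3, 57.6 tags as a mean of the 3 libraries. For H3K27Ac the median member had 4.06, 3.04 and 4.05 tags, against 47.7, 46.1 and 42.5 over all windows, and 4 members reached the median window of 46.3 tags. The whole family held 0.0426%, 0.0196% and 0.0163% of the H3K4me3 tags in gene windows. Intervals cover counting error only and are too narrow where 1 molecule was read more than once, since CUT&Tag carries no molecular identifiers. A window at 0 allows up to 3 tags.

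The Polycomb marks were also low at the typical member, but a minority stood well above it. The median H3K27me3 was 3.05, 2.03 and 1.01 tags, against 14.2, 15.2 and 9.05 for all windows. H2A119Ub had a median of 6.17, 5.27 and 6.13 tags, against 38.1, 43.5 and 39.9. At or above the median window were 223 members (19.6%) for H3K27me3, which takes 12.8 tags, and 57 members (5.02%) for H2A119Ub, which takes 41.1 tags. Of these, 56 members were above for both marks. No mark was above its median window at 908 members, 1 mark at 171, 2 marks at 55, and 3 marks at 1. The vomeronasal receptors, the pheromone receptor genes of a second smell organ, had a median H3K27me3 of 1.35 tags over the 3 libraries, beside 2.37 for the olfactory receptors, 5.23 for keratin-associated proteins and 1020 for Hox genes, the standard PRC2 targets.

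**Figure D1:**
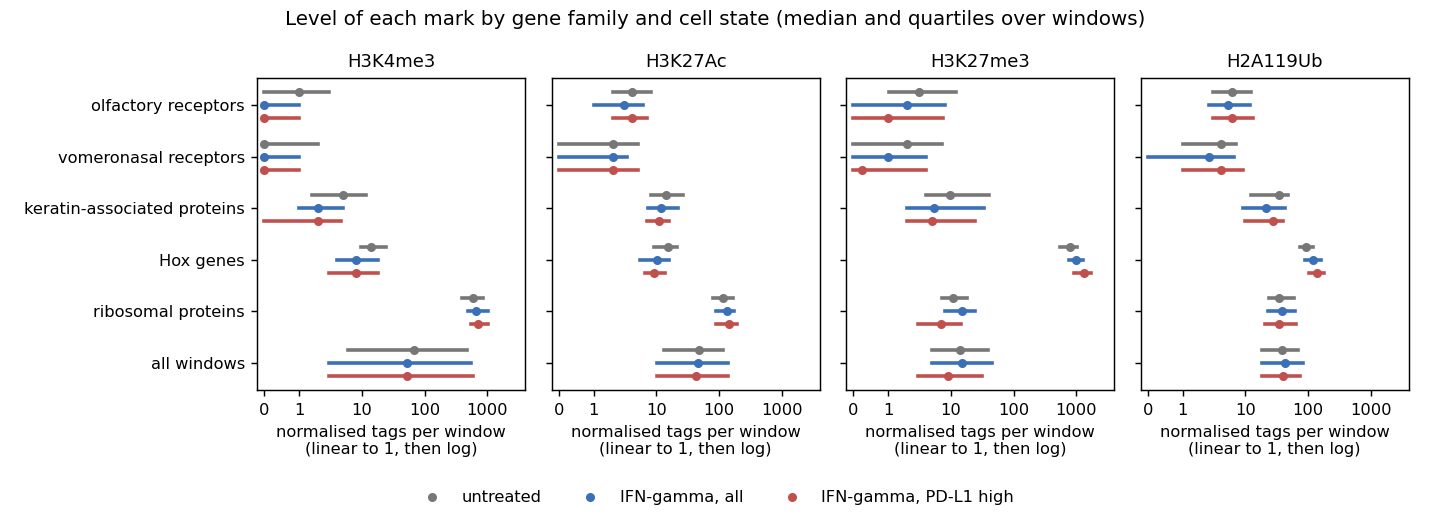
Normalised tags per window of the 4 marks (horizontal axes, linear to 1 and logarithmic above) for windows of 5 gene families and all windows. Points are medians and bars the quartiles over windows in the untreated (grey), IFN-gamma (blue) and PD-L1 high (red) libraries. Medians of the 1135 olfactory receptor windows lie between 0 and 1 for H3K4me3 and between 1.01 and 3.05 for H3K27me3, below the medians of all windows.

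Coverage was thin. Among the members, 463, 645 and 661 had no H3K4me3 tag in the untreated, IFN-gamma and PD-L1 high libraries, and 201, 335 and 377 had no H3K27me3 tag. Only 203 members were above 0 in all 12 libraries. The 4 windows named Olfr1506, Olfr1506-2, Olfr1565 and Olfr1565-2 were at 0 in all 12. Another 16 windows formed 8 pairs with identical values in all 12 libraries, so such members are not separate measurements. Spearman's rho between libraries of 1 mark, over the 1135 members, was 0.415 to 0.466 for H3K4me3, 0.487 to 0.498 for H3K27Ac, 0.762 to 0.779 for H3K27me3 and 0.702 to 0.749 for H2A119Ub. The order of members was thus most alike between libraries for the Polycomb marks.

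The highest H3K27me3 of the family lay on chromosome 1, where the 8 genes Olfr1416, Olfr1415, Olfr1414, Olfr1413, Olfr1412, Olfr1411, Olfr1410 and Olfr12 occupy chr1:92479681-92621001. Olfr1410 had 1130 H3K27me3 tags in the untreated library, 1304 in the IFN-gamma library and 1346 in the PD-L1 high library, and ranked 213 among 25507 windows. Olfr1413 had 941, 1036 and 1164 tags, and Olfr1414 had 806, 1041 and 1042. Both were above the Hox gene medians of 804 and 998 tags in the first 2 libraries, and below the Hox median of 1318 in the PD-L1 high library. Olfr1412 had 703, 868 and 908 tags, and Olfr1411 had 790, 799 and 877. Olfr1416, at one edge, had 601, 755 and 779 tags, and Olfr12, at the other edge, had 290.0, 355 and 411. Olfr1415, between Olfr1416 and Olfr1414, was the lowest of the 8 on the mean of the libraries, with 326, 323 and 371 tags.

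All 8 genes were above the 90th percentile of all windows, 166 tags, and neighbouring starts were 8189 to 62077 bp apart, farther than 1 window reaches. The cluster held 28.8% of all H3K27me3 tags of the family. H2A119Ub was high at most of the same genes, with 191, 229 and 216 tags at Olfr1410 and 221, 202 and 216 at Olfr1414. Olfr1415 had 54.5, 80.4 and 92.5. The flanking genes Ndufa10, Cops9 and Otos had more H3K4me3 and less H3K27me3 than the receptors, but not always less H2A119Ub. Ndufa10, a subunit of mitochondrial complex I, had 492, 499 and 515 H3K4me3 tags and 69.1, 105 and 92.6 H3K27me3 tags. Cops9, a subunit of the COP9 signalosome, had 609, 665 and 747 H3K4me3 tags and 94.99, 152 and 112 H3K27me3 tags. Otos, beyond Cops9, had 82.1, 66.1 and 83.6 H3K4me3 tags and 234, 274 and 213 H3K27me3 tags, above the 90th percentile. H2A119Ub was 59.2, 65.9 and 32.7 tags at Ndufa10, 127, 192 and 125 at Cops9, and 196, 178 and 208 at Otos. H3K4me3 in the cluster was 6.46 to 42.8 tags, highest at Olfr12, the member nearest to Cops9. The printed promoters of Olfr1410 and Olfr12 hold 1 CpG each, and the promoter windows of the 8 genes 1 to 3. CpGs were counted only in these promoter windows, which are shorter than the windows in which the marks were read. The CpG content of the rest of each H3K27me3 window was not tested. Whether H3K27me3 runs on between the windows was not tested either.

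**Figure D2:**
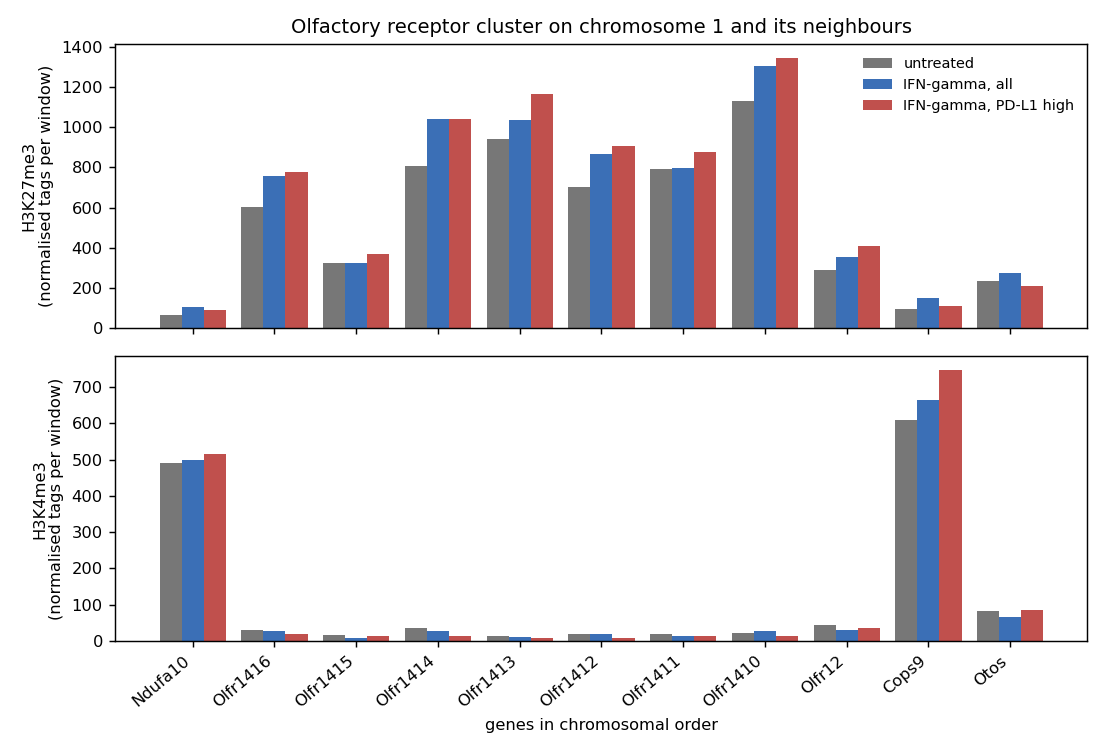
H3K27me3 (upper panel) and H3K4me3 (lower panel) in normalised tags per window at the 8 olfactory receptor genes of the chromosome 1 cluster and at Ndufa10, Cops9 and Otos, in chromosomal order. Bars are single libraries, coloured by cell state. H3K27me3 reaches 1346 tags at Olfr1410 and is between 69.1 and 274 tags at the 3 flanking genes, whereas H3K4me3 is 492 to 747 tags at Ndufa10 and Cops9 and at most 42.8 tags at the receptors.

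Outside this cluster, 13 further members passed the 90th percentile of H3K27me3. Olfr222, on chromosome 11 near Nlrp3, an inflammasome sensor, had 712, 918 and 1036 H3K27me3 tags, and its printed promoter holds 5 CpGs. Olfr371 had 322, 341 and 445 tags, Olfr94 had 270, 301 and 319, and Olfr71 had 273, 291 and 303. Olfr94 lies 4074 bp from the start of Ubd, an interferon-inducible ubiquitin-like gene that itself had 59.4, 101 and 72.4 H3K27me3 tags. Olfr1513, near Sall2, a developmental transcription factor, had 200, 181 and 181 tags. Together the 21 members above the percentile held 46.5% of the H3K27me3 tags of the family. Of these 21, 15 lay in clusters of fewer than 10 members, and none lay more than 100000 bp from the start of another kind of gene. Just above the 166 tags that mark the percentile was Olfr1394 with a mean of 173, and just below was Olfr370 with 165.

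The level of a member varied with its surroundings, for the Polycomb marks and for the active marks as well. At or above the median window of H3K27me3 were 4 of 5 members within 3000 bp of the start of a gene that is no olfactory receptor, and 16 of 23 (69.6%) at 3000 to 10000 bp. At 10000 to 100000 bp it was 167 of 426 (39.2%), and farther away 34 of 671 (5.07%). For H2A119Ub the same groups gave 3 of 5, 5 of 23 (21.7%), 48 of 426 (11.3%) and 0 of 671. The median H3K27me3 of members farther than 100000 bp was 1.35 tags on the mean of the libraries, against 7.42 at 10000 to 100000 bp. For H3K4me3 these medians were 0.333 and 1.33 tags, and for H3K27Ac 3.38 and 5.66. Only 5 members lay within 3000 bp, the reach of a window if centred on the start.

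Cluster size went along with the same difference. In clusters of 1 to 9 members, 51 of 92 (55.4%) were at or above the median window of H3K27me3, in clusters of 10 to 49 it was 108 of 395 (27.3%), and in clusters of 50 or more it was 62 of 638 (9.72%). Within the large clusters the difference by distance was still seen, with 38 of 162 (23.5%) at 10000 to 100000 bp and 19 of 468 (4.06%) farther away. In the small clusters the shares were 47 of 77 (61.0%) and 1 of 12. GC content also moved with the level: the shares at these distances were 55.2% and 10.5% among the third of promoters richest in GC, and 20.6% and 3.08% among the third poorest. Across members, Spearman's rho of H3K27me3 was -0.52 with the distance, -0.38 with cluster size, 0.43 with promoter GC content and 0.15 with promoter CpG count. At H3K4me3 and H3K27Ac it was -0.42 and -0.34 with the distance, -0.37 and -0.24 with cluster size, and 0.43 and 0.42 with GC content. The trend was thus not particular to the Polycomb marks. These values describe members that share libraries and neighbourhoods. The part of GC content in the difference by distance was not tested beyond this split.

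**Figure D3:**
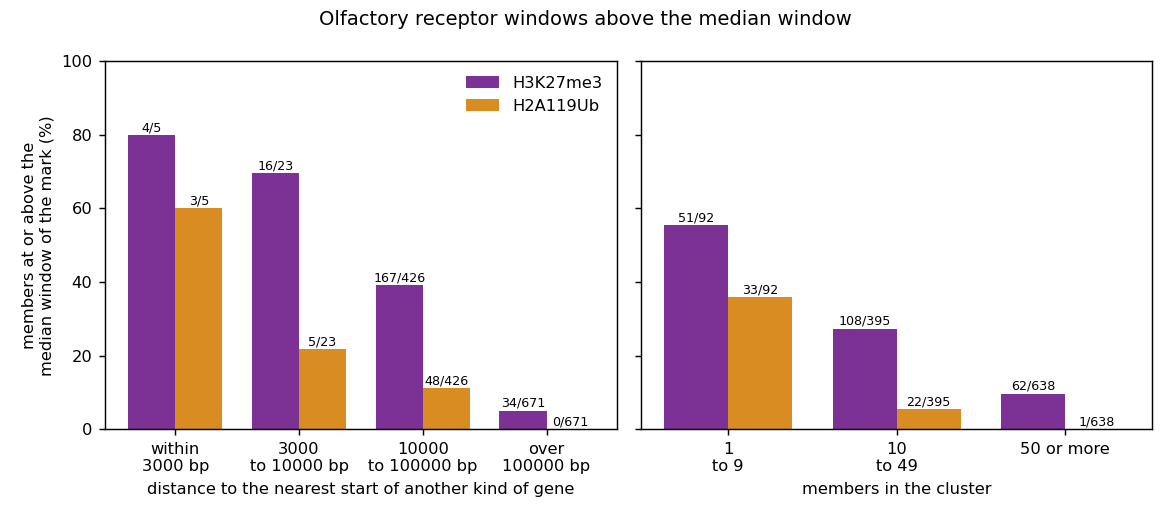
Share of olfactory receptor windows at or above the median window of H3K27me3 (purple) and H2A119Ub (orange), in percent, by distance to the nearest start of another kind of gene (left) and by number of members in the cluster (right). Labels on the bars give members above the median window over all members of the bin. For H3K27me3 the share is 69.6% at 3000 to 10000 bp and 5.07% beyond 100000 bp.

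In the largest cluster, of 226 windows on chromosome 2, the median H3K27me3 was 2.03, 1.01 and 0 tags, and 1 member was above the median window. That member, Olfr1274, lies at the edge of the cluster, with 77.2, 47.6 and 66.9 tags. The clusters of at least 10 members had medians from 1.02 to 33.0 tags in the untreated library, 0 to 35.7 in the IFN-gamma library and 0 to 32.2 in the PD-L1 high library. The highest medians belonged to the cluster from Olfr1370 to Olfr1359 on chromosome 13, with 12 windows of which 11 were above the median window and medians of 33.0, 35.7 and 32.2 tags. On chromosome 11 the cluster from Olfr30 to Olfr225, which holds Olfr222, had 20 of 24 windows above it. On chromosome 15 the 9 windows from Olfr288 to Olfr279 were all above it, with medians of 108, 111 and 84.0 tags, and 7 of 9 were also above the median window of H2A119Ub. At the other end, all 36 windows of the chromosome 9 cluster from Olfr24 to Olfr18 and all 15 of the chromosome 7 cluster from Olfr310 to Olfr292 were below it.

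**Figure D4:**
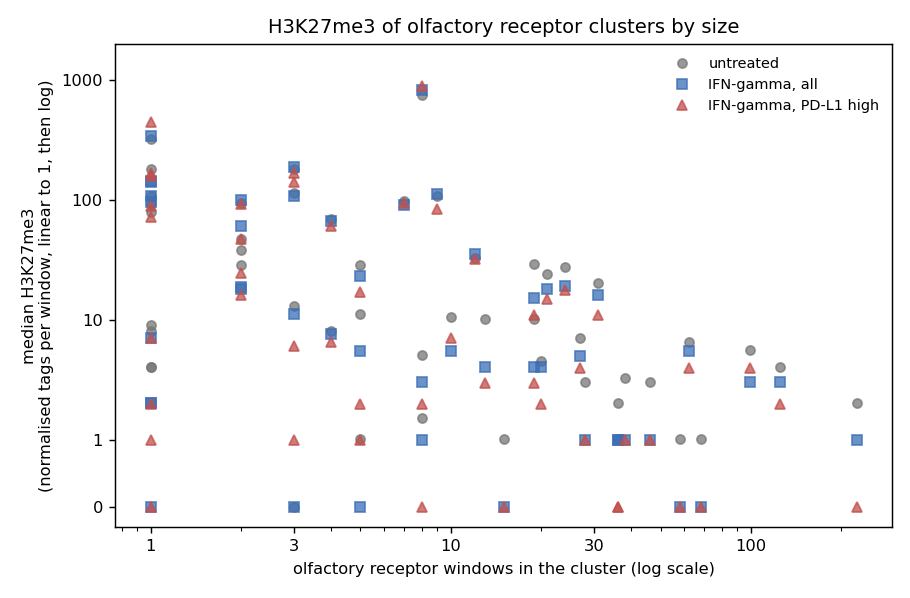
Median H3K27me3 of each olfactory receptor cluster (vertical axis, normalised tags per window, linear to 1 and logarithmic above) against the number of windows in the cluster (logarithmic axis), in the untreated (circles), IFN-gamma (squares) and PD-L1 high (triangles) libraries. The 8 genes on chromosome 1 stand at 747, 834 and 893 tags, whereas the largest cluster, of 226 windows, stands at 2.03, 1.01 and 0.

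Class I and class II receptors differed little in the typical member. The median H3K27me3 was 4.06, 3.04 and 2.01 tags in class I and 3.05, 2.03 and 1.01 in class II, and 16.0% and 20.1% of members were above the median window. The median H2A119Ub was 7.20, 5.27 and 6.65 tags in class I and 6.17, 5.27 and 6.13 in class II. No class I member was above the median window of H2A119Ub, against 56 of 1000 class II members (5.6%). Class I is 1 cluster, so class and place cannot be told apart.

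Few members carried active marks. The highest H3K4me3 mean belonged to Olfr1033, on chromosome 2, with 70.7, 36.8 and 45.5 tags, so that only the untreated library stood above the median window. It also had 60.9, 58.7 and 96.2 H3K27Ac tags and 0, 2.03 and 1.01 H3K27me3 tags. Its neighbours were low, with mean H3K4me3 of 1.66 tags at Olfr1032 and 0.663 at Olfr1034. Olfr279, on chromosome 15, combined the marks, with 59.2, 33.8 and 22.8 H3K4me3 tags, 72.5, 103 and 53.2 H3K27Ac tags and 205, 147 and 95.1 H3K27me3 tags. It was the only member above the median window of 3 marks, H3K27Ac, H3K27me3 and H2A119Ub. Olfr1373, on chromosome 11, had 39.8, 26.8 and 28.7 H3K4me3 tags beside 147, 144 and 140.3 H3K27me3 tags. Olfr750, on chromosome 14, had 36.8, 34.8 and 33.6 H3K4me3 tags beside 32.5, 34.5 and 33.2 H3K27me3 tags. Olfr59, on chromosome 11, had 36.0, 43.5 and 43.0 H3K27Ac tags, under the median window.

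Olfr432 and Olfr433 lie on chromosome 1 beside Ifi205, an interferon-inducible gene of the HIN-200 family, with starts 18620 and 10178 bp from its start. Olfr432 had 48.7 H3K27Ac tags in the untreated library, 77.0 in the IFN-gamma library and 118 in the PD-L1 high library, the highest H3K27Ac mean of the family. Its H3K4me3 was level, with 37.8, 40.7 and 38.6 tags. Olfr433 had 52.8, 46.6 and 58.2 H3K27Ac tags and 22.9, 12.9 and 17.8 H3K4me3 tags. At Ifi205 itself, H3K27Ac was 77.6, 93.2 and 151 tags and H3K4me3 37.8, 86.4 and 120 tags. H3K27me3 was at most 7.09 tags at either receptor. The next members of that cluster were lower in H3K27Ac, with a mean of 5.41 tags at Olfr430, 37545 bp from Ifi205.

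Members with reported roles outside the nose in the mouse had little of the active marks. Olfr15, described in pancreatic beta cells, had the most, with 27.9, 16.9 and 11.9 H3K4me3 tags and 35.6, 16.2 and 22.1 H3K27me3 tags. It lies 8248 bp from Zfp174, which had 521, 529 and 493 H3K4me3 tags. Olfr78, a receptor of the carotid body and kidney vessels, had no H3K4me3 tag in any library and 12.2, 4.05 and 3.02 H3K27me3 tags. Olfr558, described in blood vessels, had 57.9, 43.6 and 40.7 H3K27me3 tags, and Olfr544, described in adipose tissue and liver, had 29.5, 24.3 and 11.1. Olfr1393, described in the kidney proximal tubule, had 92.5, 46.6 and 49.8 H3K27me3 tags. Olfr16, described in muscle and sperm, and Olfr2, described in macrophages, had at most 7.11 H3K27me3 tags and 2.97 H3K4me3 tags. Beside MHC class I genes of the Ib type, Olfr98 lies 6572 bp from H2-M3 and had 83.3, 93.2 and 102 H3K27me3 tags, whereas H2-M3 had 14.2, 24.3 and 13.6 H3K27me3 tags and 282, 214 and 244 H3K4me3 tags. Olfr110, 8914 bp from H2-M2, had at most 4.05 H3K27me3 tags.

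Genes that serve the receptors were read beside them. Of 14 genes of receptor function, 3 were above the median window of H3K4me3, namely Adcy3, the cyclase of olfactory cilia, Ric8b, a chaperone of olfactory G proteins, and Gng13, a G protein gamma subunit. Gnal, the olfactory G protein alpha subunit, had 8.96, 0.99 and 1.98 H3K4me3 tags, and Cnga2, the olfactory cation channel, had 0, 0.99 and 0.99. Of 16 genes of receptor choice and heterochromatin, 11 were above it. Lhx2, a homeodomain factor of receptor enhancers, was not: it had 12.9, 14.9 and 13.9 H3K4me3 tags and 1501, 1750 and 2527 H3K27me3 tags, the most of the list. Ebf1, Ebf2, Ebf3 and Emx2 had mean H3K27me3 of 453 to 809 tags and mean H3K4me3 of at most 21.2 tags. Kdm1a, the demethylase needed for receptor choice, had 259, 383 and 371 H3K4me3 tags, and Setdb1, an H3K9 methyltransferase, had 303, 349 and 410.

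IFN-gamma was compared with untreated cells to ask whether silent receptor windows change with the cytokine. Fewer tags of all 4 marks lay in olfactory receptor windows of the IFN-gamma library than of the untreated library. For H3K4me3 the log2 ratio of the summed tags was -0.87 (95% Clopper-Pearson interval -0.95 to -0.78) as deposited. It was -1.10 (-1.19 to -1.01) after centring on the median of windows at or above the median window, whose ratio was 0.23. In single members 578 were lower, 201 higher and 356 equal, against 11196 lower and 12561 higher among all 25507 windows. All 22 clusters of at least 10 members had a lower sum, 18 of them with an interval below 0. The difference was of like size at other silent families, with -0.83 (-1.03 to -0.63) at vomeronasal receptors, -0.80 (-1.04 to -0.57) at keratin-associated proteins and -0.82 (-1.09 to -0.55) at beta-defensins. Windows below the median window that are no olfactory receptors gave -0.61 (-0.62 to -0.59). The share of H3K4me3 tags inside gene windows was higher in the IFN-gamma library, as given above, and its part in the result was not tested.

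For H3K27Ac the summed ratio was -0.28 (-0.33 to -0.23) as deposited and -0.51 centred, with 650 members lower and 397 higher, against 10915 lower and 13845 higher among all windows. For H2A119Ub it was -0.06 (-0.10 to -0.03) as deposited and -0.30 (-0.34 to -0.26) centred, with 630 lower and 488 higher, against 9205 lower and 15768 higher. Over all windows the deposited ratios were 0.23 for both marks. Of the 4 members above the median window of H3K27Ac, 0 were at least 2-fold higher or lower, where 0.251% and 0.643% of all windows above it were. Of the 57 members above that of H2A119Ub, 0 were at least 2-fold higher (0.408% of all) and 1, Olfr287, was lower (0.894% of all), with 61.8 and 30.3 tags (centred log2 ratio -1.10, -2.03 to -0.55). The highest H2A119Ub ratios were at Olfr92, with 21.6 and 58.0 tags (0.91, 0.41 to 2.01), at Olfr95, with 41.2 and 71.8, and at Olfr281, with 48.4 and 79.1. The filter of 41.1 tags is a mean that includes both libraries compared. Olfr92 was under it in the untreated library, and Olfr287 in the IFN-gamma library. No member could be counted for H3K4me3, where none was above the median window. The median ratio of single members, centred and with a pseudocount, was -0.54 at H3K27me3 and -0.30 at H2A119Ub, beside -0.13 and -0.11 over all windows. At H3K4me3 and H3K27Ac it was -0.24 and -0.39, beside -0.23 and -0.17, and both turned to 0.45 and 0.018 when centred on windows below the median window.

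**Figure D5:**
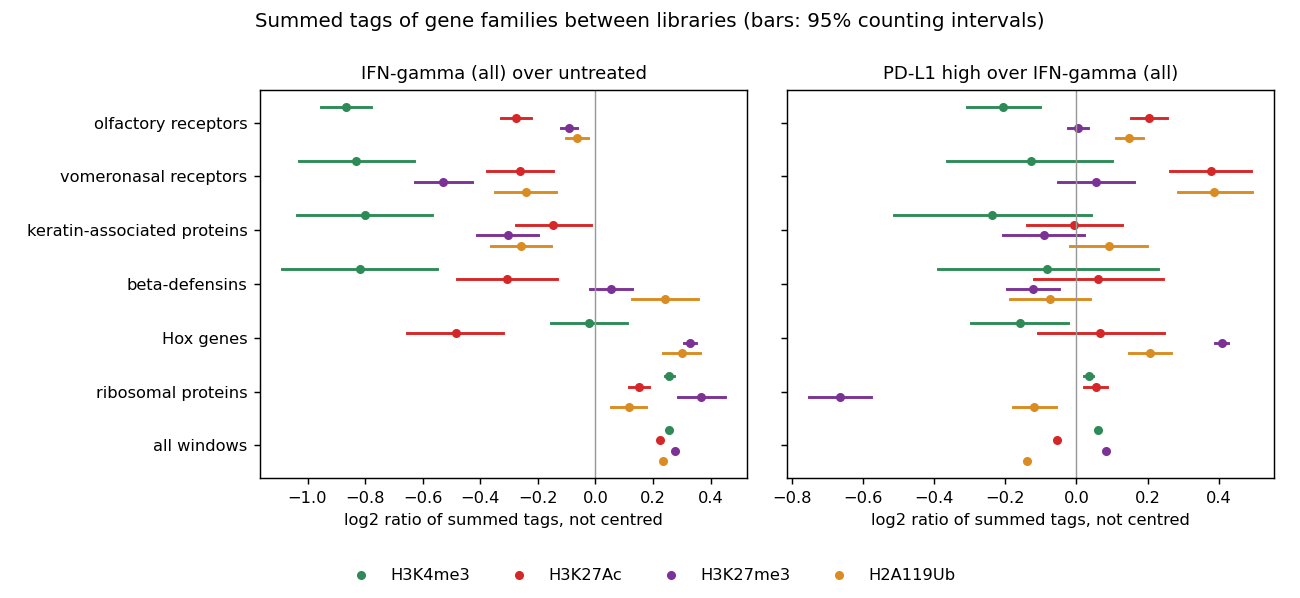
Log2 ratio of the tags summed over each gene family, not centred, for IFN-gamma over untreated (left) and PD-L1 high over IFN-gamma (right). Points are the 4 marks, bars the 95% Clopper-Pearson intervals for counting error, and the line marks 0. For H3K4me3 the IFN-gamma over untreated ratio is -0.87 at olfactory receptors and between -0.83 and -0.80 at vomeronasal receptors, keratin-associated proteins and beta-defensins.

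The H3K27me3 ratio of IFN-gamma over untreated varied with the level of the member. The sum over the family was nearly level, with a log2 ratio of -0.09 (-0.12 to -0.06) as deposited and -0.31 (-0.34 to -0.28) centred. The 912 members below the median window had a deposited ratio of -0.69 (-0.76 to -0.61), whereas other windows below it had 0.00 (-0.01 to 0.02). Those other windows were not matched to the members in H3K4me3 or in H3K27me3 level. The 202 members between the median window and the 90th percentile had -0.19 (-0.23 to -0.15), and the 21 members above the percentile had 0.18 (0.14 to 0.22). The centred median ratios of single members in these 3 groups were -0.54, -0.51 and -0.08. The 21 members were thus higher only as deposited, and by less than all windows. In the chromosome 1 cluster 7 of 8 genes were higher in the IFN-gamma library, with a deposited ratio of the sums of 0.21 (0.16 to 0.27), which centring took to 0.00 (-0.06 to 0.05). Hox genes had 0.33 (0.31 to 0.35), and all windows 0.28. Of the 22 clusters of at least 10 members, 19 had a lower deposited sum, 16 of them with an interval below 0. The deposited sums of other silent families differed, with -0.53 (-0.63 to -0.43) at vomeronasal receptors, -0.31 (-0.41 to -0.20) at keratin-associated proteins and 0.054 (-0.02 to 0.13) at beta-defensins. Among windows above the median window, centred medians were -0.46 at olfactory receptors, -0.55 at vomeronasal receptors, -0.51 at keratin-associated proteins and -0.23 at beta-defensins.

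Among the 223 members above the median window of H3K27me3, 36 (16.1%) were at least 2-fold lower in the IFN-gamma library after centring, and 0 were at least 2-fold higher. Over all 12757 windows above it the shares were 4.51% lower and 3.79% higher, and over those below the median window of H3K4me3 they were 7.03% and 0.2%. The difference was not particular to olfactory receptors, since 10 of 39 vomeronasal receptor windows above it (25.6%) were lower and 0 higher. At keratin-associated proteins 1 of 19 (5.26%) was lower, and at beta-defensins 1 of 24 (4.17%), with 0 higher at either. The filter is a mean that includes the untreated library, and 14 of the 36 were under 12.8 tags in the IFN-gamma library, so their passing it rested in part on the library where they were high. With the filter set on the PD-L1 high library, which is in neither arm, 42 of 261 members were 2-fold lower (16.1%) and 3 higher (1.15%), beside 5.05% and 3.9% of all windows. The levels of the 36 were low, between 19.3 and 92.5 tags in the untreated library, and the median member above the median window had 32.9 tags, against 38.3 for all such windows and 73.5 for those below the median window of H3K4me3. With a filter at the 75th percentile, 3 of 98 members were 2-fold lower (3.06%), where 0.957% of all windows above it were. The member with the largest difference was Olfr213, with 24.4 tags in the untreated, 2.03 in the IFN-gamma and 12.1 in the PD-L1 high library (-2.92, -6.93 to -1.80), but its mean of 12.83 tags is just above the filter of 12.82 and passed it only through the untreated library. Olfr937 had 24.4, 7.09 and 12.1 tags (-1.75, -3.46 to -0.74), and Olfr148 had 24.4, 8.10 and 12.6 (-1.60, -3.17 to -0.61), so both were under the filter in the other 2 libraries as well. These 3 had to be lower to be counted, and their values are a description. Olfr1393, the kidney receptor named above, was also among the 36 (-1.18, -1.75 to -0.68) and was above the filter in each library. The highest ratios were under 2-fold, at Olfr59 with 8.13, 21.3 and 11.1 tags (0.98, -0.06 to 2.55), at Olfr328 with 10.2, 24.3 and 8.05 and at Olfr406 with 14.2, 29.4 and 8.05. Their intervals included 0. Olfr59 and Olfr328 were under the filter in the other 2 libraries, so they passed it only through the IFN-gamma library, where they were high.

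PD-L1 high cells were compared with all IFN-gamma treated cells to ask how the selected cells differ, and this comparison shares the IFN-gamma library with the one before. For H3K4me3 the deposited ratio of the summed tags was -0.21 (-0.31 to -0.10), and H3K27Ac had 0.20 (0.15 to 0.26). H3K27me3 had 0.005 (-0.02 to 0.03), and H2A119Ub 0.15 (0.11 to 0.19). Centring gave -0.28, 0.25, 0.27 (0.24 to 0.29) and 0.29 (0.25 to 0.33) in the same order. Over all windows the deposited ratios were 0.06, -0.06, 0.08 and -0.14. Vomeronasal receptors had -0.13, 0.38, 0.06 and 0.39 in the same order, so the higher H3K27Ac and H2A119Ub were not particular to olfactory receptors. Keratin-associated proteins had -0.24, -0.006, -0.09 and 0.09, and beta-defensins -0.08, 0.06, -0.12 and -0.07. For H2A119Ub 679 members were higher and 442 lower, while among all windows 10672 were higher and 14332 lower. Of the vomeronasal receptors 193 were higher and 93 lower. The IFN-gamma library of H2A119Ub had the lowest depth, and the part of depth in this difference was not tested.

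In the chromosome 1 cluster H3K27me3 was higher in the PD-L1 high library at 8 of 8 genes, with a deposited ratio of the sums of 0.09 (0.04 to 0.14) and a centred one of 0.35 (0.30 to 0.40). Hox genes had 0.41 (0.39 to 0.43) as deposited. Members below the median window had -0.23 (-0.32 to -0.14), and other windows below it, not matched in H3K4me3 or level, -0.84 (-0.85 to -0.82). Among the 223 members above the median window, 9 were at least 2-fold higher and 4 lower after centring, and 3 higher and 8 lower as deposited, where 0.494% and 20.6% of all windows above it were. Of all windows above it 1.37% were higher and 12.6% lower after centring, and of those below the median window of H3K4me3 2.54% and 1.44%. Of vomeronasal receptors above it 4 of 39 (10.3%) were higher and 0 lower, and of beta-defensins 2 of 24 (8.33%) and 0. Of 19 keratin-associated proteins 0 were higher and 1 lower. The 9 members had 15.2 to 42.7 tags in the untreated library, and 5 of them were under the filter in the IFN-gamma library. With the filter set on the untreated library, which is in neither arm, 15 of 253 members were higher (5.93%) and 4 lower (1.58%), beside 1.7% and 11.9% of all windows. Olfr213 had the highest ratio (2.06, 0.67 to 6.04), through the same IFN-gamma value of 2.03 tags that made it the lowest in the first comparison. It was followed by Olfr1441, with 17.3, 10.13 and 24.1 tags, and Olfr1445, with 15.2, 12.2 and 27.7. Olfr677 was the lowest, with 15.2, 22.8 and 5.53 tags, followed by Olfr406 and by Olfr146, with 23.4, 21.8 and 7.04. All 4 lower members were under the filter in the PD-L1 high library. For H2A119Ub, Olfr1372-ps1 was at least 2-fold higher (0.361% of all windows above the median window), with 27.7 and 57.3 tags, and none was lower (0.517%). Its neighbour Olfr1371 had 29.7 and 52.7 tags. Both were under the filter of 41.1 tags in the IFN-gamma library and passed it on a mean that includes the PD-L1 high library. The lowest ratios were at Olfr1373, of the same cluster of 3, with 128 and 63.4 tags (-0.79, -1.36 to -0.40), and at Olfr763, with 93.6 and 46.0 tags (-0.77, -1.46 to -0.33). Of the 4 members counted for H3K27Ac 0 were 2-fold higher or lower (0.0784% and 0.196%).

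The marks varied together from member to member. Spearman's rho between H3K4me3 and H3K27me3 was 0.59 over the 1135 members and 0.24 over all windows, and between H3K27Ac and H3K27me3 it was 0.55 and 0.19. For H3K27me3 and H2A119Ub it was 0.80 and 0.75, whereas for H3K4me3 and H3K27Ac it was 0.59 and 0.94. Members share their libraries and neighbours, and the counts behind the active marks are small, so these values are a description.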

How the data were processed

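CUT&Tag was read for 4 histone marks in 3 states of KPC1199 cells, with 1 library each and no replicate. The authors deposited 1 table with a normalised signal per gene and library. Per the submitters' processing notes, the tools included MACS2 2.2.7.1, HOMER and Bowtie2 2.4.2, and the genome was mm10. The settings, gene window, treatment of duplicates and scaling used by the authors are, like the tools' roles, not given in the sources used here. All values, when multiplied by 6000, lay within 10% of a multiple of 0.5 tags of a size set by each library, so the signal was read as tags per window of 6000 bp. All value columns were used.

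Members, gene lists and alternatives were chosen with earlier results of these data known. Symbols and positions came from RefSeq (GRCm38.p6). Olfr1033 and Olfr78 had no promoter entry. Gaps between members run between annotated starts. Distances to another kind of gene run between starts in the promoter table. Where a placed member had no entry there, the nearer of its annotated start and end was used. Log2 ratios of single windows added a pseudocount, the 10th percentile of values above 0 (H3K4me3 1.99 tags, H3K27Ac 5.06, H3K27me3 2.03 and H2A119Ub 8.18), which understates differences at low windows. Ratios were centred on the median of the windows whose mean over the 3 libraries was at or above the median window. That median ratio was 0.23, 0.24, 0.22 and 0.24 for IFN-gamma over untreated and 0.07, -0.05, -0.26 and -0.14 for PD-L1 high over IFN-gamma, in the order of the marks above. Only such windows were counted as 2-fold or more apart. Levels have exact Poisson intervals at 95%, and ratios have Clopper-Pearson intervals computed from tags with no pseudocount.

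Members were named by rule: the 6 highest of each mark, the 3 highest and 3 lowest ratios among members above the median window, members with reported roles outside the nose, members within 10000 bp of listed interferon-inducible genes, and, for some, the nearest gene. Olfr94, Olfr371, Olfr1274, Olfr1415, Olfr1416, Olfr1394, Olfr370, Olfr1513, Olfr1032, Olfr1034, Olfr430 and the members that begin or end a cluster were named after their values were seen. The formula for centred ratios of single windows and their 2-fold calls was tested on simulated data, with changes only in windows above the median window. Summed ratios and intervals were not part of that test. Python 3.11.15 with numpy 2.4.6, pandas 2.3.3, scipy 1.17.1 and matplotlib 3.10.9 was used. Pseudocount, centring, level filter, members left out and the gap between clusters were varied.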

Additional observations from a re-analysis of the deposited data

How the results depend on the processing

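The level of each mark at the median member moved by less than its counting error when pseudogenes or members near another gene were left out, and a gap of 0.5 Mb between clusters left their number and size alike. No paired analysis was possible because each mark and cell state had 1 library. For the same reason no library could be left out. Low counts limit the single members: most have under 13 tags of H3K27me3 in each library.

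The centred median ratios of IFN-gamma over untreated, -0.24, -0.39, -0.54 and -0.30 for H3K4me3, H3K27Ac, H3K27me3 and H2A119Ub, depended on the scaling. Without centring they were -0.003, -0.15, -0.32 and -0.059, by construction nearer to 0. Centred on windows below the median window, H3K4me3 reversed to 0.45 and H3K27Ac to 0.018, while H3K27me3 was -0.32 and H2A119Ub -0.065. Quantile normalization gave 0, -0.008, -0.21 and -0.007. A pseudocount 5 times as large, which pulls low windows toward 0, gave -0.23, -0.26, -0.32 and -0.19, and a pseudocount of 1 tag gave -0.51 for H3K27Ac and -0.38 for H2A119Ub. Members above the median window alone gave -0.022 for H3K27Ac and -0.17 for H2A119Ub.

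For PD-L1 high over IFN-gamma the centred medians were -0.07, 0.20, 0.26 and 0.24. Without centring H3K4me3 and H3K27me3 were 0 and H2A119Ub 0.11. On windows below the median window they were 0, 0.44 and 0.11. Quantile normalization gave 0, 0, 0.029 and -0.004 for the 4 marks. The pseudocount of 1 tag gave -0.074, 0.31, 0.27 and 0.34, and the larger one -0.072, 0.089, 0.21 and 0.13. Members above the median window alone gave 0.49 for H3K27Ac and 0.26 for H3K27me3.

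The summed ratios of IFN-gamma over untreated stayed below 0 for each mark. Without centring they were -0.87, -0.28, -0.091 and -0.064, and centred on windows below the median window -0.42, -0.11, -0.088 and -0.07. For PD-L1 high over IFN-gamma, H3K27me3 was 0.005 without centring and 0.45 centred on windows below the median window, and H2A119Ub 0.15 in both. Leaving out the 10 highest members took H3K27me3 to -0.46 and 0.20 in the 2 comparisons. Leaving out the 8 genes of the chromosome 1 cluster, an alternative chosen after seeing the data, gave -0.43 and 0.23.

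Counts of members at least 2-fold higher or lower moved most without a level filter, which adds windows of few tags. For IFN-gamma over untreated they became 13 higher and 259 lower, 11 and 149, 23 and 308, and 3 and 79 in the order of the marks. The lower ones were 22.8%, 13.1%, 27.1% and 6.96% of members, beside 33.1%, 14.4%, 18.7% and 4.61% of other windows below the median window. For PD-L1 high over IFN-gamma they became 31 and 116, 66 and 20, 111 and 67, and 31 and 2. The higher ones were 2.73%, 5.81%, 9.78% and 2.73% of members, beside 4.13%, 3.97%, 6.04% and 3.57%. For H3K27me3 in IFN-gamma over untreated, where 0 were higher and 36 lower, no centring gave 2 and 19, quantile normalization 2 higher, a pseudocount of 1 tag 1 higher, a filter at the 75th percentile 3 lower, and a filter on the PD-L1 high library 3 and 42. In PD-L1 high over IFN-gamma, with 9 higher and 4 lower, no centring gave 3 and 8, quantile normalization 30 and 0, the stricter filter 1 and 0, and a filter on the untreated library 15 and 4. Filters on the library outside the comparison were chosen after seeing the data, and for H3K27Ac in the second comparison gave 1 lower. For H2A119Ub the single calls were lost, with 0 lower in the first comparison without centring or with the stricter filter, and 0 higher in the second under these settings and under quantile normalization. In the first comparison 1 was higher without centring or with a pseudocount of 1 tag. Where no construction is named, the cause was not tested.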
